A study of Mus musculus with 14 samples.

Results

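The genes described here are 10 regulators and contractile genes of the heart, and the data are the CTCF and H3K27ac peaks that lay near them in mouse embryonic stem cells (mESCs) and embryoid bodies (EBs). The 7 regulators were Nkx2-5, Tbx5, Hand1, Hand2, Isl1, Mef2c and Tbx20, and the 3 contractile genes were Tnnt2, Myl7 and Actc1. They were chosen by name out of 21938 protein-coding genes. A CTCF site, meaning the merged interval of peaks that overlapped by at least 1 bp across the 8 CTCF lists, belonged to a gene when it lay within 100 kb of any of its annotated start sites (mm10). This gave 111 of 86652 CTCF sites, together with 23 of 38982 H3K27ac peaks in WT and 24 of 45318 in CTCF-K20R. No gene lay in the 40 to 70 Mb stretch of chromosome 14.

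The study asked how a lysine 20 to arginine change in CTCF (CTCF-K20R), made by CRISPR/Cas9 in E14Tg2A mESCs, altered CTCF occupancy during early mesoderm differentiation. WT and CTCF-K20R cells were profiled as undifferentiated mESCs at day 0, grown with LIF and 2i on inactivated mouse embryonic fibroblasts, and as EBs at day 4, formed in hanging drops without LIF. CTCF ChIP-seq had 2 libraries for each genotype and day, and H3K27ac ChIP-seq had 1 library for each genotype at day 4, with no replicate check. The number of CTCF-K20R clones is not given in the sources used here, and the labels do not say that replicates came from separate cultures. The study describes the CTCF libraries of each group as independent experiments, and p-values measure the spread between these libraries. In bulk samples of this kind, fewer cells carrying a peak and a weaker peak in every cell cannot be told apart.

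CTCF is a zinc-finger protein that binds a long, directional DNA motif and stops cohesin, so that pairs of CTCF sites facing each other often mark the ends of chromatin loops. H3K27ac is an acetyl mark of active promoters and enhancers. The members act at successive steps of heart formation. Nkx2-5 (homeobox), Tbx5 and Tbx20 (T-box), Hand1 and Hand2 (basic helix-loop-helix), Isl1 (LIM homeobox, second heart field progenitors) and Mef2c (MADS-box) are transcription factors. Tnnt2 (cardiac troponin T), Myl7 (atrial myosin light chain) and Actc1 (cardiac alpha actin) build the sarcomere and are made once cardiomyocytes form, later than the day 4 profiled here.

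The CTCF lists held between 41360 peaks (the first CTCF-K20R day 4 library) and 77657 peaks (the first WT day 0 library), and the other WT day 0 list held 52698. These unequal lengths touched the members too, since 14 of the 22 sites found in a single list were found only in the first WT day 0 library. The files hold no read counts, so depth behind a single peak is unknown. Strength is given below as a percentile, the place of a peak's fold enrichment in its own list, from 0 for the weakest to 100 for the strongest. A peak at the same place from the top has a lower percentile in a shorter list. The CTCF-K20R day 4 lists were the shortest, so percentiles compared between lists carry this shift. H3K27ac peaks within 3 kb of a start site were present at 5 of 6 pluripotency markers in both genotypes, and at 8 of 10 mesoderm markers in WT against 1 of 10 in CTCF-K20R. The part of this marker difference in the day 4 results was not tested.

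A CTCF motif learned from the WT day 0 peaks with the smallest peak-calling p-values had the 19-letter consensus CGGCCACCAGGGGGCGCTG. It was found within 100 bp of the summit in 84 of the 111 sites (75.7%), against 75.8% of all sites, and in 51 of the 55 sites called in all 8 lists (92.7%) against 89.8%. In the sequences here, printed 5′ to 3′ on the strand of the motif with reference coordinates from mm10, capitals mark the best 19-letter match and lower case its flanks of 12 bases. The first set has the strongest site of Tnnt2 and of Nkx2-5, shown as members that stayed near the top of every list.
Tnnt2 site 46.4 kb upstream, chr1:135789994-135790036, minus strand: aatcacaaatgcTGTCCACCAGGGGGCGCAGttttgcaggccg
Nkx2-5 site 75.2 kb upstream, chr17:26916773-26916815, plus strand: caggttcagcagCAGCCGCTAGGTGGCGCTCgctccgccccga
The second set shows 4 sites with the same 19 letters, of which the Tbx5 pair and the Myl7 site were called in all 8 lists and the Actc1 site was lost in CTCF-K20R at day 4.
Tbx5 site 95.1 kb upstream, chr5:119739544-119739586, plus strand: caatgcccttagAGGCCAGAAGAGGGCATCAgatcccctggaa
Tbx5 site 75.6 kb upstream, chr5:119759097-119759139, minus strand: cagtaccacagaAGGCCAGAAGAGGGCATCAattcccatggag
Myl7 site 39.9 kb downstream, chr11:5858911-5858953, plus strand: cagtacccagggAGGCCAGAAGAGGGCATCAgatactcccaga
Actc1 site 41.9 kb upstream, chr2:114094814-114094856, plus strand: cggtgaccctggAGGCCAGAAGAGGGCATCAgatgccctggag
The third set shows a further pair with one shared match, called in all 8 lists near Tbx5 and lost near Actc1, followed by another lost Actc1 site.
Tbx5 site 44.7 kb upstream, chr5:119789944-119789986, plus strand: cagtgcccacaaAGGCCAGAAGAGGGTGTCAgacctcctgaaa
Actc1 site 31.0 kb downstream, chr2:114021871-114021913, plus strand: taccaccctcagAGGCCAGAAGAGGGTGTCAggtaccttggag
Actc1 site 11.3 kb upstream, chr2:114064169-114064211, minus strand: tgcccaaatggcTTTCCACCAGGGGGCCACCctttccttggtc
The fourth set shows the Nkx2-5 and Myl7 sites with the smallest p for a change of the genotype difference between the days.
Nkx2-5 site 44.7 kb upstream, chr17:26886283-26886325, minus strand: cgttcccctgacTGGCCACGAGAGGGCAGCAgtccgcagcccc
Nkx2-5 site 54.2 kb upstream, chr17:26895725-26895767, plus strand: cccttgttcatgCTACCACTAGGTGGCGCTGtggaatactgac
Nkx2-5 site 46.6 kb downstream, chr17:26794909-26794951, plus strand: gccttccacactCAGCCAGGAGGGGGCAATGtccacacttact
Myl7 site 60.7 kb downstream, chr11:5838018-5838060, plus strand: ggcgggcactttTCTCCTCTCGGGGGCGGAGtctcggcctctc
Myl7 site 97.4 kb upstream, chr11:5996123-5996165, plus strand: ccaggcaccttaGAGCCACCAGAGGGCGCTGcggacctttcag

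The same letters thus stood at kept and at lost sites. The match shared by the second set was found at 977 sites of the whole series, of which 499 were called in all 8 lists, and 116 of the 713 called in both WT day 4 libraries (16.3%) were lost, against 18.8% of all sites. For the match shared by Tbx5 and Actc1 in the third set, 14 of 81 such sites (17.3%) were lost. A near variant of these, ACACCAGAAGAGGGCATCA, occurred at 1 Nkx2-5 site and 2 Hand1 sites that were called in 1 to 6 lists, and of its 2741 sites in the series 59 were called in all 8 lists, while 201 of the 354 called in both WT day 4 libraries (56.8%) were lost. Among the lost sites near the members, 7 of 10 held a match (70%), against 69.2% of all lost sites.

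The members differed widely in how many CTCF sites surrounded them, from 2 at Isl1 to 23 each at Hand1 and Myl7, with a median over the members of 10.5 against 12 over all protein-coding genes. In the whole set 58 sites were intergenic, 42 intronic and 11 exonic, and only 3 lay within 3 kb of a member's start site. Of those 3, a single one, 2.61 kb upstream of Isl1, was called in all 8 lists. The nearest site called in all 8 lists lay between 2.61 kb (Isl1) and 92.8 kb (Actc1) from the start.

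**Figure D1:**
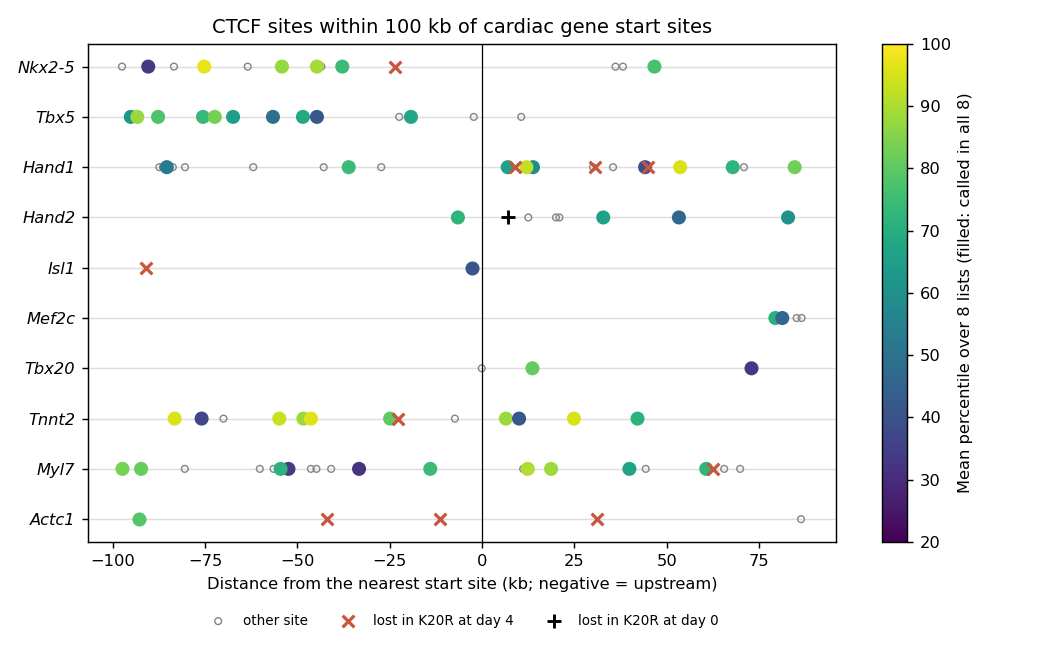
Each point is a CTCF site placed by its distance in kb from the nearest start site of the gene on its row, with upstream to the left. Filled points are the 55 sites called in all 8 lists, coloured by their mean percentile, crosses are the 10 sites lost in CTCF-K20R at day 4 and the plus sign is the 1 site lost at day 0; Tbx5, Tnnt2 and Myl7 had 10 filled points each, and Actc1 had 1 filled point.

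Among the regulators, Nkx2-5 (chr17:26838664-26845009, minus strand) had no site in the 23.6 kb nearest its start. Its nearest sites called in all 8 lists flanked the gene 43.7 kb beyond its downstream end and 34.4 kb beyond its upstream end, with motifs that pointed towards each other across the gene. This was the only member whose flanking pair, where both sites lay in the window and held a match, was convergent. Its strongest site, 75.2 kb upstream and 295 bp from the start of Kifc5b, had a mean percentile of 97.1, and it ranged from 91.8 to 99.7 over the 8 libraries.

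Tbx5 (chr5:119832668-119885219, plus strand), a T-box factor of the left ventricle and atria, had 10 sites called in all 8 lists, and all 10 lay upstream, between 19.3 and 95.1 kb from its start. All 10 held a match, and in 9 of them (90%) most of the matched letters were repeat-masked in the reference, against 30.1% of all sites with a match called in all 8 lists. The strongest of the row, 93.3 kb upstream, had a mean percentile of 87.6. A site 10.6 kb downstream, in an intron of Tbx5, was called in 6 lists.

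Hand1 (chr11:57828705-57832818, minus strand) and Hand2 (chr8:57320983-57324633, plus strand) are paired regulators of ventricle formation. Hand1 had 9 sites called in all 8 lists, and the strongest, 53.6 kb downstream in an intron of Galnt10, had a mean percentile of 95.2. Hand2 had 4 such sites. The nearest of them, 6.56 kb upstream in an intron of Hand2os1, was also its strongest by mean percentile (72.1), although it held no match to the motif.

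Isl1 (chr13:116298281-116309689, minus strand), Mef2c (chr13:83504034-83667080, plus strand) and Tbx20 (chr9:24718138-24774303, minus strand) stood in sparse surroundings, with 1, 2 and 2 sites called in all 8 lists. Beyond the single Isl1 site upstream, the next such site in the downstream direction was 847 kb from the end of the gene. The Mef2c sites lay inside the gene, 79.4 and 81.3 kb downstream of the nearest start. Tbx20 had an intronic site 13.6 kb downstream with a mean percentile of 80.8, and a weak site 99 bp upstream of its start that was called in 3 lists with percentiles of 0.897 to 4.31.

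Of the contractile genes, Tnnt2 (chr1:135836354-135852260, plus strand) had 10 sites called in all 8 lists, including 2 in its own introns, 6.43 and 10.005 kb downstream of a start site. Its strongest site, 46.4 kb upstream in intergenic sequence, had a mean percentile of 95.8, and the nearest one past the end of the gene, 13.5 kb away, reached 95.04. Myl7 (chr11:5896637-5898782, minus strand) also had 10, of which the nearest lay 10.2 kb past its downstream end (mean percentile 90.4) and 14.03 kb upstream (mean percentile 74.5). Actc1 (chr2:114047282-114053548, minus strand) had 1, in an exon of Aqr 92.8 kb upstream, with a mean percentile of 78.7.

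The first comparison asked whether CTCF-K20R libraries held fewer CTCF sites near these genes. At day 0 the WT libraries called 98 and 71 sites and the CTCF-K20R libraries 72 and 70. At day 4 the WT libraries called 82 and 83 and the CTCF-K20R libraries 58 and 74, so the groups overlapped at day 0 and not at day 4. The mean ratio of CTCF-K20R to WT at day 4 was 0.800 over the members and 0.725 over the whole lists, and at day 0 it was 0.840 and 0.798. With 2 libraries against 2, an exact two-sided permutation test cannot give a p below 0.333. When all lists were shortened to the length of the shortest one, the day 4 difference was −2.0 sites in place of −16.5. At day 0 it was 3.5 in place of −13.5. Shortening makes the whole lists equal by construction, so a smaller difference in the windows was built into this setting. Without the second CTCF-K20R day 4 library the difference was −24.5, and without the first it was −8.50.

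Actc1 had the lowest ratio. Its window held 4 and 3 sites in the WT day 0 libraries, 4 and 3 in CTCF-K20R at day 0, and 5 and 5 in WT at day 4, but 1 and 2 in CTCF-K20R at day 4. The day 4 groups did not overlap, and the ratio of means was 0.3. The Isl1 window held 2 sites in every library except the 2 CTCF-K20R day 4 libraries, which held 1 each. Tbx5 had 11 and 11 sites in WT and 10 and 11 in CTCF-K20R at day 4, and Mef2c had 3 and 3 against 2 and 4. The day 4 groups also stood apart at Hand1 (14 and 16 against 9 and 13) and Myl7 (15 and 15 against 11 and 12). So did the whole day 4 lists, with 61088 and 61436 peaks in WT against 41360 and 47463 in CTCF-K20R. The share of all genes whose day 4 groups stood apart was not counted.

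**Figure D2:**
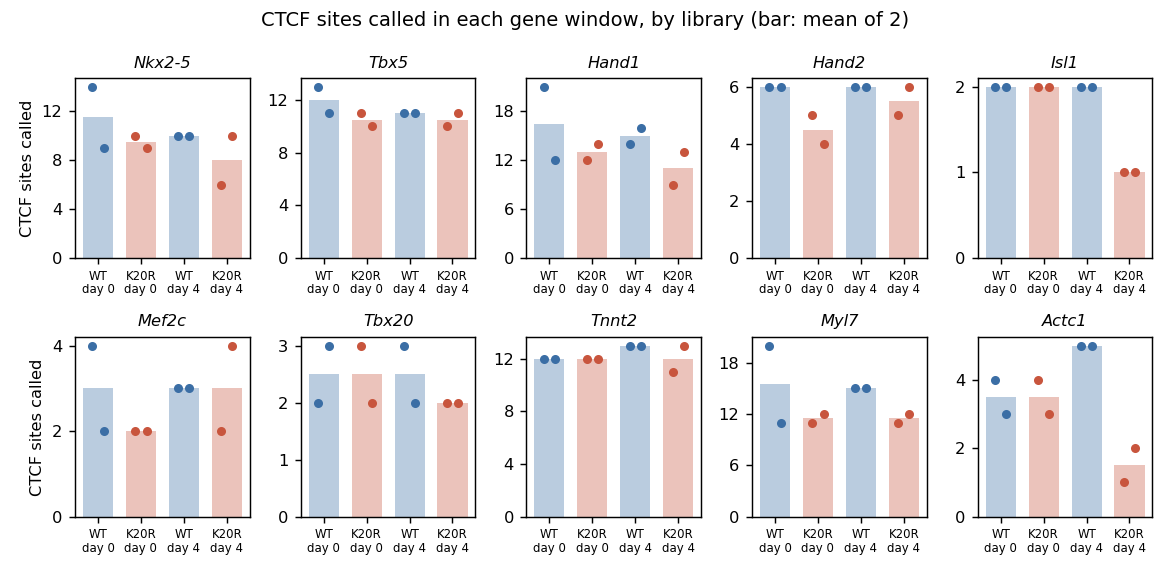
Number of CTCF sites called in the 100 kb windows of each gene, with one point for each library and bars for the mean of 2 libraries. The points of WT and CTCF-K20R at day 4 stand apart at Actc1 (5 and 5 against 1 and 2) and Isl1 (2 and 2 against 1 and 1). They also stand apart at Hand1 (14 and 16 against 9 and 13) and Myl7 (15 and 15 against 11 and 12). At the remaining genes they overlap. The share of all genes whose day 4 points stand apart was not counted. Both whole CTCF-K20R day 4 lists were also shorter than both WT day 4 lists.

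A site was called lost when both WT libraries of a day held it and neither CTCF-K20R library did, and gained in the reverse case. At day 4, 10 of the 77 member sites held by both WT libraries were lost (13%, Wilson 95% interval 7.21 to 22.3), against 18.8% of all sites. None of the 57 held by both CTCF-K20R libraries was gained, which allows up to 6.31%, against 0.536% of all sites. At day 0, 1 of 69 was lost (1.45%, interval 0.256 to 7.76), against 7.69% of all sites, and 0 of 67 was gained, against 0.426%. The intervals cover counting error only. The member share lost at day 4 stood below the background, with the background inside its interval. With lists of one length it was 3.39%, against 5.64% of all sites, and with the second CTCF-K20R day 4 library left out it was 26%, against 28.3%. Without the second WT day 0 library the share lost at day 0 was 25.5%, against 29.9% of all sites.

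The 10 lost sites belonged to 6 of the 10 genes (60%), against 67.5% of all protein-coding genes with such a site, and lay between 8.77 and 91.1 kb from a start. Actc1 and Hand1 had 3 each, and Nkx2-5, Isl1, Tnnt2 and Myl7 had 1 each, whereas Tbx5, Hand2, Mef2c and Tbx20 had none. The site nearest to Actc1 (chr2:114063961-114064298, 11.3 kb upstream in an intron of C130080G10Rik) had percentiles of 45.0 and 22.0 in WT at day 0, 10.3 and 20.5 in CTCF-K20R at day 0, and 25 and 35.8 in WT at day 4. It was called in every library except the CTCF-K20R day 4 pair. The other lost Actc1 sites (chr2:114021711-114021997, 31.0 kb downstream, and chr2:114094707-114094922, 41.9 kb upstream) had WT day 4 percentiles of 23.9 and 10.5, and of 13.5 and 26.6. The former was called in both CTCF-K20R libraries at day 0, and the latter in no day 0 library.

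The lost Isl1 site (chr13:116400617-116400890, 91.1 kb upstream) was the strongest of the 10 in WT at day 4, at percentiles of 48.3 and 46.6, and like the near Actc1 site it was present in all 4 day 0 libraries. The lost Hand1 sites lay 8.77, 30.5 and 44.9 kb downstream (chr11:57823217-57823514, chr11:57801521-57801777 and chr11:57787085-57787377). The middle one stood 40 bp from the start of Sap30l, inside an H3K27ac peak of both genotypes. The remaining ones were at chr17:26865068-26865298, 23.6 kb upstream of Nkx2-5, at chr1:135813554-135813863, 22.7 kb upstream of Tnnt2, and at chr11:5836003-5836463, 62.5 kb downstream of Myl7 in an exon of Polm. At day 0 the lost site was near Hand2 (chr8:57327849-57328144, 6.98 kb downstream), with WT percentiles of 19.8 and 12.8, and no day 4 library of either genotype called it.

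All 10 day 4 losses had mean WT percentiles below 50, from 7.78 to 47.5 with a median of 18.6, against 62.3 over the 77 sites. In WT percentile bands of 0 to 25, 25 to 50, 50 to 75 and 75 to 100, 6 of 9, 4 of 18, 0 of 21 and 0 of 29 member sites were lost. Over all sites the shares in those bands were 62.0%, 25.8%, 1.97% and 0.0198%. A further 10 member sites were held by both WT libraries and by 1 CTCF-K20R library, and all 10 were missing from the first, which has the shortest list; over all sites this held for 5219 of 6413. None of these lists records whether reads below the calling threshold remained at a lost site.

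**Figure D3:**
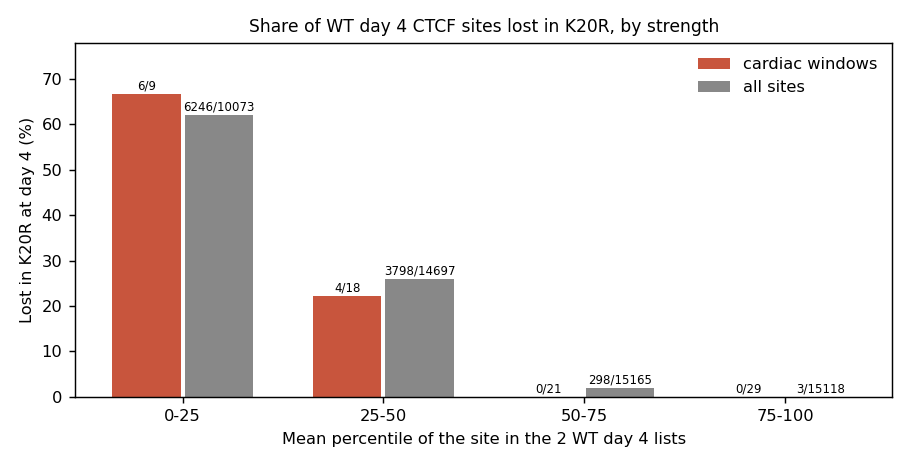
Share of CTCF sites of both WT day 4 libraries that were lost in CTCF-K20R, in percent, by band of 25 in the site's mean WT percentile, for the member windows and for all sites, with the counts above the bars. The losses near the members stood in the 2 weaker bands (6 of 9 and 4 of 18), and none of the 21 and 29 sites in the stronger bands was lost.

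Between day 0 and day 4 few member sites appeared or vanished within a genotype. In WT 2 of 69 were lost (2.90%) and 2 of 77 gained (2.60%), against 5.75% and 3.81% of all sites. In CTCF-K20R 3 of 67 were lost (4.48%) and 0 of 57 gained, against 9.1% and 1.18%.

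The strength of the 55 member sites called in all 8 lists was compared by limma on log2 fold enrichment, quantile normalized and fitted over 36440 such sites, with Benjamini-Hochberg adjustment over all of them. At day 0, 11 member sites were stronger and 3 weaker in CTCF-K20R than in WT at an adjusted p under 0.05, against 12.8% stronger and 11.1% weaker of all sites. At day 4, 6 were stronger and 6 weaker, against 11.2% and 10.6%. The genotype difference itself changed between the days at 12 sites, upwards at 3 and downwards at 9, against 8.02% and 8.71%. From day 0 to day 4, 17 sites rose and 5 fell in WT, against 17.4% in each direction, and 5 rose and 2 fell in CTCF-K20R, against 5.46% and 5.41%. These comparisons share libraries, and the members' median log2 differences were 0.26 (day 0), 0.03 (day 4) and 0.26 (WT, day 4 minus day 0), beside −0.02, 0.00 and 0.00 over all sites.

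These counts rest on the scaling. Without any scaling, when the medians of all sites stood at 0.43 and 0.16 for the genotype at day 0 and day 4, limma called 8 member sites at day 0 (all stronger in CTCF-K20R) and 0 in each of the other 4 comparisons, where 10 (day 4), 7 (change of the genotype difference), 7 (WT) and 6 (CTCF-K20R) of the 55 had an unadjusted p under 0.05. Over all sites 16.6%, 7.70%, 11.3% and 14.7% did so in these comparisons. The day 0 count was 5 or 4 without the first or second CTCF-K20R day 0 library. The day 4 count was 5 without either WT day 4 library and 3 without the first CTCF-K20R day 4 library. From day 0 to day 4 in CTCF-K20R the members' median log2 change was 0.12, beside −0.003 over all sites. It was 0.083 and 0.121 without the first and second CTCF-K20R day 0 library, and −0.0016 without the first CTCF-K20R day 4 library. Over all sites the medians of these fits, which leave 1 library in a group, were −0.0031, −0.0033 and 0.0015. The change of the genotype difference counted 5 sites without the first CTCF-K20R day 0 library, and 7 without the second WT or the first CTCF-K20R day 4 library. Of the 25 values with the smallest p, 5 for each comparison, none changed direction in 285 repeats under alternatives, and 51 repeats no longer passed. These values were picked for their small p in the same libraries, so an unchanged direction was favoured in advance.

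Among the members, Nkx2-5 sites had the smallest p in 4 of the 5 comparisons, the exception being the genotypes at day 4. The upstream site at 44.7 kb (chr17:26885890-26886472), in an exon of Gm20468 and 85 bp from the start of Gm17382, had percentiles of 64.8 and 64.9 in WT at day 0 and 98.8 and 98.5 in WT at day 4. In CTCF-K20R it stood at 93.0 and 94.5 at day 0 and at 98.9 and 99.4 at day 4. WT day 0 was thus low and the other 3 groups were high, without overlap. Its log2 strength rose by 1.73 ± 0.18 (SE) in WT between the days (limma adjusted p = 1.31e-05) and was 1.34 ± 0.18 higher in CTCF-K20R at day 0 (adjusted p = 0.000157).

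The next Nkx2-5 site, 54.2 kb upstream in an intron of Gm20468 (chr17:26895361-26896132), had percentiles of 74.7 and 63.0 in WT and 95.2 and 96.4 in CTCF-K20R at day 0, and 93.7 and 95.8 in WT and 90.0 and 90.6 in CTCF-K20R at day 4. The WT day 0 libraries were again the low pair. The difference between the genotypes moved by −1.36 ± 0.23 on the log2 scale from day 0 to day 4 (limma adjusted p = 0.00105). Both this site and the one at 44.7 kb kept their day 0 genotype call in all 12 alternatives that gave a value.

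The downstream flank of Nkx2-5 (chr17:26794599-26795369, 46.6 kb from the start) passed the threshold between the genotypes at day 4, with CTCF-K20R below WT. Its percentiles were 80.9 and 54.0 in WT and 76.6 and 78.3 in CTCF-K20R at day 0, against 96.0 and 96.0 in WT and 61.6 and 70.5 in CTCF-K20R at day 4. It rose by 1.21 ± 0.20 in WT (limma adjusted p = 0.000284), and was 0.93 ± 0.20 lower in CTCF-K20R at day 4 (log2 difference −0.93, adjusted p = 0.00390). The first CTCF-K20R day 4 library was the lowest of the day 4 values. The strongest Nkx2-5 site, 75.2 kb upstream, rose in CTCF-K20R by 0.66 ± 0.15 between the days (limma adjusted p = 0.0102). Its mean log2 strength in WT went from 5.63 to 6.08. By deposited fold enrichment the CTCF-K20R days overlapped, at 56.93 and 59.91 at day 0 and 59.90 and 114.1 at day 4.

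Tbx5 sites differed among themselves although they lay in 1 upstream row. At day 0 the sites 87.7, 72.4 and 67.4 kb upstream (chr5:119746570-119747426, chr5:119761959-119762469 and chr5:119766868-119767389) were stronger in CTCF-K20R, by log2 differences of 1.09 ± 0.18, 0.74 ± 0.18 and 1.26 ± 0.24 (limma adjusted p = 0.000656, 0.00598 and 0.00150). The site at 67.4 kb had percentiles of 58.8 and 20.7 in WT and 69.0 and 64.3 in CTCF-K20R at day 0, so the second WT library stood far below the first. At day 4 it had 80.2 and 81.7 in WT and 75.9 and 65.8 in CTCF-K20R. Of the 10 Tbx5 sites 3 were stronger and 2 weaker in CTCF-K20R at day 0, and 2 were stronger and 0 weaker at day 4. In CTCF-K20R the strongest site of the row, 93.3 kb upstream, rose between the days by 0.67 ± 0.19 (adjusted p = 0.0297).

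The Hand2 site 6.56 kb upstream (chr8:57314135-57314613) had percentiles of 71.4 and 62.3 in WT and 73.4 and 68.1 in CTCF-K20R at day 0, and 91.5 and 90.3 in WT and 51.6 and 67.9 in CTCF-K20R at day 4. It rose in WT by 1.01 ± 0.19 (limma adjusted p = 0.000924) and at day 4 was lower in CTCF-K20R (log2 difference −0.80 ± 0.19, adjusted p = 0.00830). By deposited fold enrichment the day 4 groups overlapped, at 32.5 and 31.3 in WT and 15.5 and 32.1 in CTCF-K20R. Hand2 also had a site 32.8 kb downstream (chr8:57353429-57353952) that rose in both genotypes. The rise was 1.09 ± 0.22 in WT (limma adjusted p = 0.00126) and 0.79 ± 0.22 in CTCF-K20R (adjusted p = 0.0299). The CTCF-K20R rise passed in 4 of 11 alternatives. Percentiles went from 68.3 and 62.9 to 90.5 and 91.8 in WT, and from 50.3 and 39.7 to 60.7 and 61.6 in CTCF-K20R. At day 4 the site was lower in CTCF-K20R (log2 difference −0.79 ± 0.22, adjusted p = 0.0173).

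The Isl1 site 2.61 kb upstream (chr13:116312061-116312460), the promoter-proximal site of the members, had percentiles of 63.7 and 41.98 in WT and 36.2 and 34.9 in CTCF-K20R at day 0. At day 4 it had 68.1 and 52.9 in WT and 6.76 and 24.6 in CTCF-K20R. By deposited fold enrichment the groups overlapped at day 0 (18.99 and 9.73 in WT, 11.72 and 11.2 in CTCF-K20R) and not at day 4 (18.8 and 13.2 against 5.08 and 8.61). The log2 difference was −1.12 ± 0.29 at day 4 (limma adjusted p = 0.0112), and at day 0 it was −0.38 and did not pass the threshold. Whether the difference changed between the days did not pass either (−0.74 ± 0.41, adjusted p = 0.231).

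At Hand1, the site 85.4 kb upstream (chr11:57917920-57918385) had the smallest p for the genotype at day 4. Its percentiles were 77.9 and 55.2 in WT and 56.9 and 54.5 in CTCF-K20R at day 0, and 62.2 and 73.3 against 18.6 and 21.6 at day 4. The log2 difference at day 4 was −1.21 ± 0.26 (limma adjusted p = 0.00385), and the site fell in CTCF-K20R between the days (−0.97 ± 0.26, adjusted p = 0.0234). A Hand1 site 67.8 kb downstream in an intron of Galnt10 (chr11:57763889-57764642) also fell in CTCF-K20R (−0.84 ± 0.20, adjusted p = 0.0153).

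Among the contractile genes, the Tnnt2 upstream flank at 24.9 kb (chr1:135810989-135811687) was stronger in CTCF-K20R at day 4, with percentiles of 88.3 and 95.7 against 79.9 and 64.2 in WT and a log2 difference of 0.97 ± 0.22 (limma adjusted p = 0.00597). Opposite changes stood at either end of the Myl7 window. The site 60.7 kb downstream beside the start of Polm (chr11:5837694-5838296), had percentiles of 67.7 and 61.2 in WT and 77.7 and 76.3 in CTCF-K20R at day 0, and 93.1 and 90.9 against 34.03 and 74.6 at day 4. Its genotype difference moved by −1.70 ± 0.37 (adjusted p = 0.00542), and the CTCF-K20R day 4 libraries were far apart, with deposited fold enrichments of 9.78 and 38.7 on either side of the WT values of 34.2 and 31.9. The site 97.4 kb upstream in an intron of Camk2b (chr11:5995796-5996324) had 95.2 and 94.1 against 79.9 and 71.6 at day 0, and 75.1 and 75.1 against 86.3 and 92.1 at day 4. Its difference moved by 1.39 ± 0.24 (adjusted p = 0.00141), from WT higher to CTCF-K20R higher on this scale, while the deposited fold enrichments overlapped at day 0 (42.05 and 30.7 in WT, 40.2 and 31.8 in CTCF-K20R). The single Actc1 site called in all 8 lists passed the threshold in WT between the days, as 1 fall, and in neither comparison of the genotypes.

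**Figure D4:**
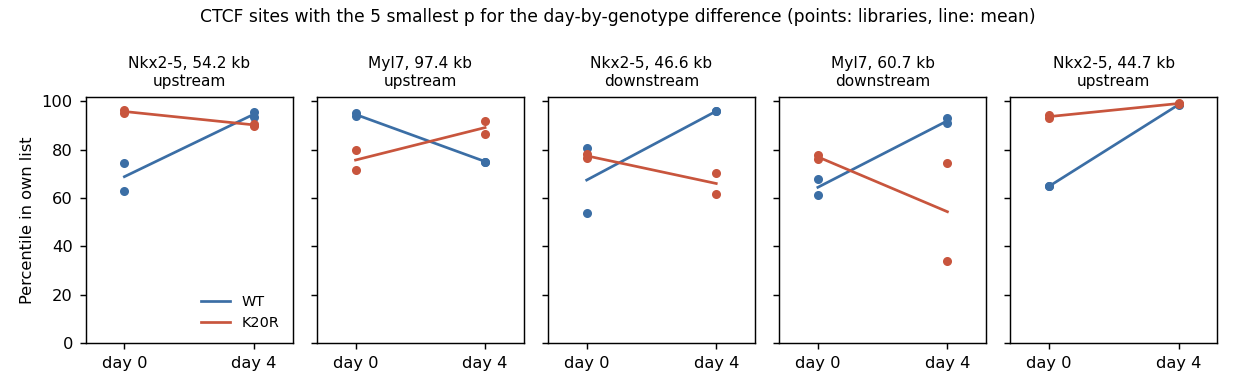
Percentile of the peak in its own list at day 0 and day 4 for the 5 member sites with the smallest p for a change of the genotype difference between the days; points are libraries and lines join the means of 2. The Nkx2-5 sites upstream start low in WT at day 0 (63.0 to 74.7) and high in CTCF-K20R (93.0 to 96.4). The Nkx2-5 and Myl7 sites downstream end higher in WT than in CTCF-K20R, as does the Nkx2-5 site 54.2 kb upstream by a smaller margin. A peak at the same place from the top has a lower percentile in a shorter list, and the CTCF-K20R day 4 lists were the shortest.

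The last comparison was of H3K27ac at day 4, with 1 library for each genotype, so the values have no test. No H3K27ac peak of either genotype lay within 3 kb of a start site of any member, whereas 51.5% of all protein-coding genes had one in WT and 52.7% in CTCF-K20R. Tbx5, Hand2, Isl1 and Mef2c had no peak within 100 kb in either list, as had 13.7% of all genes. The nearest peak lay 17.3 kb from a member start in WT and 10.7 kb in CTCF-K20R. The windows held 23 peaks covering 29.0 kb in WT and 24 covering 33.1 kb in CTCF-K20R, whose whole list was 1.16 times as long.

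The peaks that the genotypes shared lay mostly near annotated starts of other genes, non-coding ones included. The same share over the whole lists was not counted. In WT 12 of the 13 shared peaks, and in CTCF-K20R 11 of 12, were centred within 3 kb of the start of another gene. In the Nkx2-5 window, with 8 peaks in WT and 6 in CTCF-K20R, the highest fold enrichment was 7.19 in WT (chr17:26938429-26943612, 96.9 kb upstream) and 8.37 in CTCF-K20R (chr17:26780359-26781446, 60.1 kb downstream, at Bnip1). At Tnnt2 the highest peak of both lists covered the start of Phlda3, 69.3 kb upstream in WT with a fold enrichment of 7.36, and 69.2 kb upstream in CTCF-K20R with 8.92. Myl7 had 9 peaks in WT, the highest at 5.51 near Pold2, and 11 in CTCF-K20R, the highest at 5.74 near Polm. The single Hand1 peak lay beside the starts of Sap30l and 2010001A14Rik, at 3.24 in WT and 4.54 in CTCF-K20R.

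The peaks found in 1 genotype were weak. Of the WT peaks 10 of 23 overlapped no CTCF-K20R peak (43.5%, against 36.9% of the whole list), and of the CTCF-K20R peaks 12 of 24 overlapped no WT peak (50%, against 46.9%). None of them reached a −log10 q of 5, the highest being 1.97 in WT and 2.94 in CTCF-K20R. Actc1 had 3 peaks in WT, in introns of Aqr 48.6 to 84.8 kb upstream with fold enrichments of 2.76 to 3.22, and none in CTCF-K20R. Tnnt2 had 2 peaks in WT and 5 in CTCF-K20R, and Tbx20 had 0 and 1, at 2.97. At a −log10 q of at least 5 the windows held 8 peaks in each genotype.

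**Figure D5:**
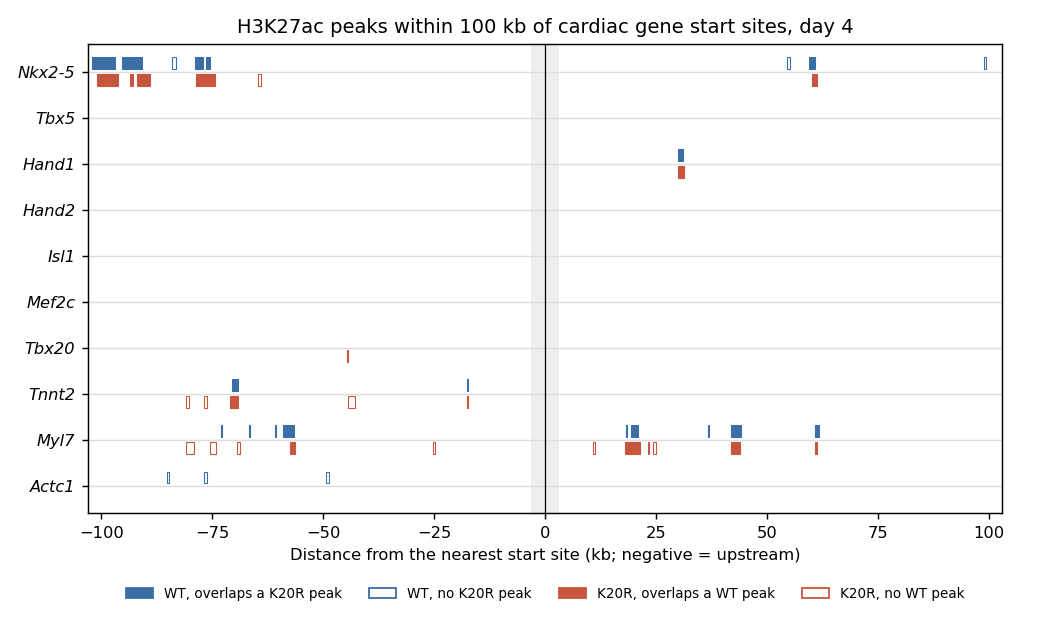
H3K27ac peaks at day 4 drawn to scale by distance in kb from the nearest start site, WT above and CTCF-K20R below each line; filled boxes overlap a peak of the other genotype and open ones do not, and the grey band spans 3 kb either side of the start. The band is empty for all 10 genes, and Tbx5, Hand2, Isl1 and Mef2c have no box.

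For comparison, a list of 32 other cardiac genes, among them Gata4, Myh6 and Ttn, was counted in the same way. Within 100 kb of them 67 of 319 sites of WT at day 4 were lost in CTCF-K20R (21%, Wilson 95% interval 16.9 to 25.8), and 57 of 294 (19.4%) without the 3 genes of the chromosome 14 stretch. H3K27ac lay within 3 kb of a start at 7 of these 32 genes in WT and at 9 in CTCF-K20R.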

How the data were processed

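CTCF and H3K27ac ChIP-seq peak lists of WT and CTCF-K20R mESCs and EBs were analysed. The authors mapped trimmed reads to mm10 (Bowtie2), discarded poorly mapped, duplicate and blacklisted ones, subsampled CTCF libraries to one read number and called peaks per library with MACS2, in broad mode for H3K27ac. Whether H3K27ac libraries were subsampled, and which input each call used, is not given in the sources used here. In the deposited lists each peak has a fold enrichment (a linear ratio over background), a −log10 p-value and a −log10 q-value. The lists hold no reads, so the DiffBind test of the study could not be repeated on them, and fold enrichment was tested in its place.

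Peaks of the 8 CTCF lists overlapping by at least 1 bp were merged into sites, and sites were assigned to genes within 100 kb of GENCODE M21 start sites. Lost and gained sites were counted with Wilson intervals. Sites called in all 8 lists were tested with limma 3.58.1. The motif was built de novo on the top 1000 peaks by −log10 p-value, with ties broken by fold enrichment, in each WT mESC list. A match had to pass the score that 5% of sequences shifted by 1 kb passed. Scripts were tested on simulated data. Sites named in the text were those lost or gained between genotypes, those with the 5 smallest p past the threshold in each limma comparison, the nearest flanking sites called in all 8 lists and the strongest site of each gene. For H3K27ac they were the peaks within 3 kb, the highest of each gene and genotype, and unshared ones reaching 5 in −log10 q. The Isl1 promoter-proximal site was named as a flank, and the shared matches were chosen after their values were seen. The members and lists were chosen with earlier results of these data known. Replicate numbers did not pair the samples, since the deviations of same-numbered libraries correlated between −0.02 and 0.24 over the group pairs. Alternatives changed the peak threshold, list length, site definition, window, scaling and libraries used. The 4 input samples have no processed file and were not used here.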

Additional observations from a re-analysis of the deposited data

Results flagged for a closer look

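At 12 of 55 member sites the CTCF-K20R minus WT difference in log2 strength changed between day 0 and day 4 by limma (adjusted p under 0.05). The same fit called 6096 of all 36440 sites. Each member site is given as its day 4 minus day 0 change. At Nkx2-5 these were the sites 54.2 kb upstream (−1.36), 46.6 kb downstream (−1.42) and 44.7 kb upstream (−1.17). At Tbx5 they were the upstream sites at 67.4 kb (−1.35), 95.1 kb (1.23), 75.6 kb (1.11) and 87.7 kb (−0.82). At Hand1 they were the downstream sites at 53.6 kb (−0.90) and 67.8 kb (−0.86), and at Hand2 the site 6.56 kb upstream (−1.16). At Myl7 they were the sites 97.4 kb upstream (1.39) and 60.7 kb downstream (−1.70). Without any scaling none of the 12 passed, and none of all 36440 sites did. An unadjusted p under 0.05 was then found at 7 of the 55 member sites, against 7.70% of all sites.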

How the results depend on the processing

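Among repeats of the main results under alternatives, leave-one-out ones included, 171 stayed close to the value given, 55 moved and 1 turned its direction. With lists of one length the peak number difference (CTCF-K20R minus WT) was 3.5 at day 0, against −13.5, and −2 at day 4, 3.39% of sites were lost at day 4 and 0% in WT between the days. Of the 11 lost sites, 10 then were no longer lost, and at a −log10 q of at least 5 this held for 4. Both settings only remove peaks, so these sites left the count because WT peaks dropped out. No CTCF-K20R peak was recovered at them. Lists of one length also make the whole lists equal by construction. With a 200 kb window the peak number differences were −34.5 and −47. Changed sites are given in the order day 0, day 4, change of the genotype difference, WT and CTCF-K20R between days. The 200 kb window gave 26, 20, 23, 40 and 15 of 101 tested, against 14, 12, 12, 22 and 7 of 55 in the main setting. The fit behind both called 8696, 7929, 6096, 12665 and 3960 of all 36440 sites. No scaling gave 8, 0, 0, 0 and 0 member sites, beside 3031, 629, 0, 71 and 361 of all sites. A log2 change of at least 1 left 4, 3, 9, 10 and 1, beside 2715, 2527, 4372, 4739 and 1130 of all sites. Median centring gave 18, 20, 8, 16 and 14, beside 10408, 11693, 4688, 9020 and 7373 of all sites. The replicate block gave 16, 12, 12, 23 and 10, beside 9288, 8561, 6617, 13200 and 4505 of all sites. Replicate numbers, however, did not pair the samples. H3K27ac peaks in the windows numbered 8 in each genotype at a −log10 q of at least 5, with 1 in each unshared when only peaks passing that threshold were compared, and 7 (WT, 2 unshared) and 10 (CTCF-K20R, 6 unshared) within 50 kb. With the stricter motif threshold passed by 1%, 45.0% of member sites, 72.7% of those in all 8 lists and 30% of the lost ones matched, against 42.03%, 64.8% and 28.7% over all sites. Leaving out 1 library gave ranges of 1.45 to 25.5% lost and 0 to 5.97% gained at day 0, 13% to 26% and 0 to 5.41% at day 4, 2.90 to 18.4% and 2.60 to 13% in WT, and 4.48 to 16.4% and 0 to 9.46% in CTCF-K20R. The peak number differences ranged from −27 to 0 and from −24.5 to −8.5, and the changed sites from 4 to 21, 3 to 14, 5 to 16, 16 to 24 and 0 to 14. Each limma fit without a library left 1 library in a group, and its count over all sites moved too. The cause was not tested. Read depth behind single peaks is unknown, so weak sites near the calling threshold limit every count of lost sites.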
